A study of Rattus norvegicus with 4 samples.

Results

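Among single nuclei from the ventral tegmental area (VTA) of adult rats, 103 of 21606 deposited barcodes formed the group examined here, a set of dopamine-like neurons with mRNA of several transmitter systems. The 103 nuclei were selected on measured UMI counts (unique molecular identifiers, each standing for 1 captured RNA molecule). A nucleus belonged to the group if it held at least 2000 UMIs in all, at least 1 UMI of Slc26a7, at least 2 of Gad2, at least 1 of Ddc and 0 of Gad1. Nuclei with at least 2 UMIs of both Th and Slc6a3 were left out. These nuclei, called multi-transmitter nuclei below, made up 103 of 15296 barcodes with at least 2000 UMIs, and 102 of the 103 also held 3 or more UMIs of the neuronal genes Snap25, Syt1 and Rbfox3. They were compared with 339 nuclei that held at least 2 UMIs of both Th and Slc6a3 (Th/Slc6a3 nuclei, dopamine neurons by their classical markers). A second comparison set was 1211 neurons with at least 2 UMIs of Gad1 (Gad1 nuclei, a broad mixture of GABA neurons).

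Dopamine is made from tyrosine by tyrosine hydroxylase (Th) and aromatic amino acid decarboxylase (Ddc), is loaded into vesicles by VMAT2 (Slc18a2) and is taken back up by the dopamine transporter (Slc6a3). GABA is made from glutamate by the decarboxylases Gad1 and Gad2 and loaded into vesicles by VGAT (Slc32a1), and glutamate is loaded by vesicular glutamate transporters, of which VGLUT2 (Slc17a6) is the main midbrain form. Some VTA neurons are known to release more than 1 of these transmitters from the same axon. Slc26a7 encodes a chloride and bicarbonate transporter of the SLC26 family, best known from kidney and stomach. All values below are mRNA counts in nuclei, and transmitter release was not measured.

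The study measured the VTA of experimentally naive male and female Sprague-Dawley rats aged 90 to 120 days, with no genetic change and no treatment in any group. Each of the 4 libraries (female 1, female 2, male 1, male 2) pooled the tissue of 3 animals of 1 sex, so the library was the replicate and animals within a pool could not be told apart. Frozen tissue was lysed, nuclei were stained with 7-AAD and sorted, and 10x Genomics 3' v3 libraries were made. The labels do not say that a female and a male library of the same number share a day or batch.

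Values of 4 libraries are given in the order female 1, female 2, male 1 and male 2. The multi-transmitter nuclei numbered 34, 27, 12 and 30, and their summed UMIs were 303915, 266437, 147607 and 252097. Male 1 therefore had the fewest nuclei and the least precise values. Their median depth was 8531 UMIs, close to the 9130 of the Th/Slc6a3 nuclei and the 7700 of the Gad1 nuclei. Oligodendrocyte-marked nuclei (4858), used below to show how often free RNA gives a UMI in a cell that should lack the gene, had a median of 2978.5 UMIs. Between 4 and 9 barcode sequences were shared by each pair of libraries, and none belonged to a multi-transmitter nucleus. Scrublet, a doublet caller, marked 3 of the 103 nuclei, 16 of the 339 and 71 of the 1211. Markers of noradrenergic neurons and mural cells were at 0 UMIs in the 103 nuclei, and of the 6 serotonergic markers Slc6a4, Fev and Gata3 were at 0. The summed level of 6 oligodendrocyte markers was 230 to 480 CPM (the gene's UMIs scaled to all UMIs of the set in that library), against 535 to 1115 CPM in the Th/Slc6a3 nuclei and 505 to 983 CPM in the Gad1 nuclei. The summed level of 5 oligodendrocyte precursor markers was higher, 98.7 to 189.7 CPM against 29.2 to 47.6 and 30.1 to 63.2 CPM. Of its 115 UMIs in the multi-transmitter nuclei 110 were of Vcan, a matrix proteoglycan, which was higher than in both other sets by 2.90 ± 0.29 and 2.38 ± 0.24 (log2 fold changes, edgeR adjusted p = 3.01e-08 and 4.03e-08), while Olig1 had 1 UMI. Whether nuclei of that type contributed was not tested.

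Multi-transmitter nuclei were 0.976%, 0.677%, 0.386% and 0.636% of nuclei with at least 2000 UMIs. The Wilson 95% intervals, which cover counting error only, ran from 0.699% to 1.36%, 0.465% to 0.983%, 0.221% to 0.674% and 0.446% to 0.907%. The female libraries averaged 0.826% ± 0.211 (SD, n = 2) and the male libraries 0.511% ± 0.177 (SD, n = 2). Every female value lay above every male value, but the exact two-sided permutation test gave p = 0.33, the smallest that 2 libraries against 2 allow. Of nuclei with 3 or more UMIs of the neuronal genes they made up 2.18%, 2.01%, 0.834% and 1.42%, counting only the 102 multi-transmitter nuclei that met the same condition. Relative to the Th/Slc6a3 nuclei, there was 1 multi-transmitter nucleus for about every 3 of the others with all libraries pooled, 103 against 339. By library the counts were 34 against 77, 27 against 84, 12 against 78 and 30 against 100, so this ratio varied widely.

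The genes that chose the nuclei are described here without a test. Slc26a7 ranged from 1 to 23 UMIs per nucleus with a median of 3, Gad2 from 2 to 38 with a median of 8, and Ddc from 1 to 25 with a median of 6. Slc26a7 averaged 455 ± 40.9 CPM (SD over 4 libraries, here and below) in the multi-transmitter nuclei, 55.3 ± 55.2 CPM in the Th/Slc6a3 nuclei and 3.22 ± 0.687 CPM in the Gad1 nuclei. Gad2 averaged 996 ± 196, 70.9 ± 52.6 and 456 ± 57.5 CPM in the same order. Ddc averaged 728 ± 55.6, 1502 ± 125 and 17.9 ± 7.19 CPM. Th was at 0 in 51 of the 103 nuclei and reached at most 10 UMIs, and Slc6a3 was at 0 in 82 and reached at most 6. Th averaged 137 ± 58.6 CPM against 721 ± 107 CPM in the Th/Slc6a3 nuclei and 5.95 ± 1.95 CPM in the Gad1 nuclei. Neither Th nor Slc6a3 was found in 41 nuclei, Th alone in 41, Slc6a3 alone in 10 and both in 11.

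Nuclei just inside and just outside the thresholds were looked at with no test. The threshold on Slc26a7 had the most nuclei near it: 21 of the 103 held exactly 1 UMI, and 85 nuclei met every other condition and held 0. Slc17a6 was found in 58.8% of those 85 nuclei and Slc32a1 in 61.2%, against 70.9% and 78.6% of the 103. With all libraries pooled, the level of Slc17a6 was higher in the 85 nuclei, at 207 CPM against 165 CPM. That of Slc32a1 was lower there, at 175 CPM against 265 CPM. Wnt2, a secreted WNT ligand, was found in 37.6% of the 85 and in 68.0% of the 103. Lmx1a was found in 62.4% against 77.7%, and Ebf2 in 62.4% against 83.5%. Gad2 at exactly 1 kept out 16 nuclei, Gad2 at 0 kept out 50, and Ddc at 0 kept out 15. In the 50 nuclei with Gad2 at 0, Slc32a1 was found in 22.0%, Slc17a6 in 56.0% and Lmx1a in 74.0%. In the 15 nuclei with Ddc at 0, Lmx1a was found in 33.3%, Wnt2 in 26.7%, Ebf2 in 26.7% and Slc32a1 in 73.3%. Gad1 kept out only 7, of which 4 held 1 UMI and 3 held 2 or more. In those 3 nuclei Slc17a6, Lmx1a and Wnt2 were all at 0. Another 23 nuclei met every condition but held 2 or more UMIs of both Th and Slc6a3. They counted as Th/Slc6a3 nuclei, and Slc32a1 was found in 18 of them, Lmx1a in 20 and Slc17a6 in 7.

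The nuclei were also compared with their nearest neighbours in expression, in a space built without the gating genes and the listed genes. Among the 20 nearest of 6419 neurons and members, 52.2% of the neighbours of a multi-transmitter nucleus were again multi-transmitter nuclei, which were 1.60% of the nuclei in that space. Th/Slc6a3 nuclei were 8.35% of the neighbours and 5.22% of the space, and Gad1 nuclei were 1.21% of the neighbours and 18.9% of the space. Nuclei in none of these sets were 38.3% of the neighbours but made up most of the space. Their part of the neighbours was thus below their part of the space, while that of the Th/Slc6a3 nuclei was above it. By library, multi-transmitter neighbours made up 52.2%, 47.0%, 55.4% and 55.5%, so all 4 libraries gave a similar share. At least 50% of the neighbours were multi-transmitter nuclei for 69 of the 103, and 2 nuclei had none. These shares describe the nuclei and are no test, since genes that go along with the gating genes shaped the space.

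The vesicular transporters of glutamate and GABA were both present. Slc17a6 (VGLUT2) was at 161, 139, 244 and 151 CPM in the multi-transmitter nuclei, at 24.6, 25.5, 25.8 and 32.6 CPM in the Th/Slc6a3 nuclei and at 12.3, 4.65, 8.47 and 14.2 CPM in the Gad1 nuclei. Every multi-transmitter library lay above every library of both other sets, with male 1 the highest. Slc17a6 was higher by a log2 fold change of 2.61 ± 0.23 (SE) than in the Th/Slc6a3 nuclei (edgeR quasi-likelihood test, adjusted p = 5.6e-09) and by 4.16 ± 0.24 than in the Gad1 nuclei (edgeR adjusted p = 1.25e-12). Slc32a1 (VGAT) was at 243, 210.2, 278 and 341 CPM in the multi-transmitter nuclei, 7.77, 23.2, 37.1 and 23.6 CPM in the Th/Slc6a3 nuclei and 261, 206, 251 and 276 CPM in the Gad1 nuclei. Its level was far above that of the Th/Slc6a3 nuclei in all 4 libraries (log2 fold change 3.48 ± 0.22, edgeR adjusted p = 1.22e-11) and overlapped with that of the Gad1 nuclei (log2 fold change 0.14 ± 0.15, edgeR adjusted p = 0.657). Both genes were among those by which the group had been proposed, so their direction is not independent evidence. For reading the counts below, 18.7% of the 9886 genes tested differed from the Th/Slc6a3 nuclei at edgeR adjusted p under 0.05 (8.87% higher, 9.82% lower in the multi-transmitter nuclei), and 12.4% differed from the Gad1 nuclei (5.44% higher, 6.98% lower). The median log2 fold change of all genes was -0.01 and -0.02.

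**Figure D1:**
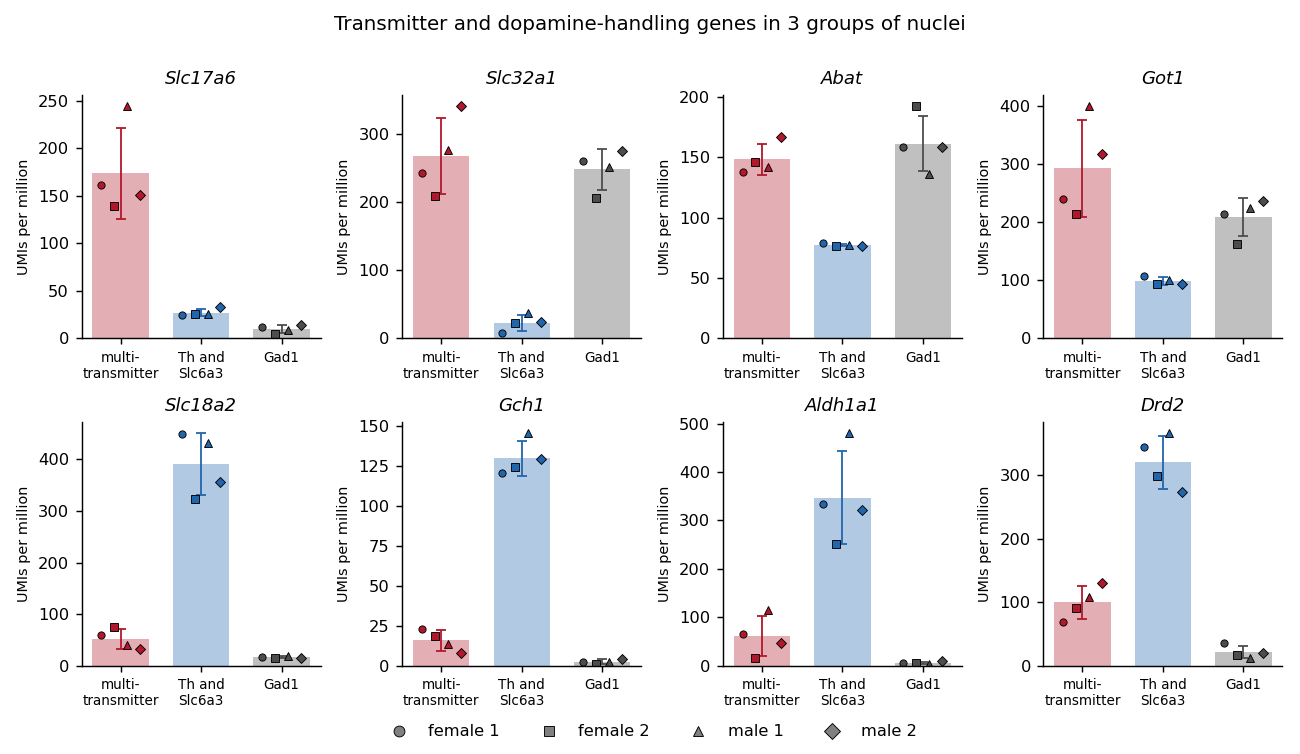
Level of transmitter and dopamine-handling genes (CPM, linear axes from 0) in the multi-transmitter, Th/Slc6a3 and Gad1 nuclei. Each point is 1 of 4 libraries, each bar the mean and each error bar the SD. Slc17a6 and Slc32a1 are both high in the multi-transmitter nuclei, while Slc18a2 averages 51.7 CPM there against 390.5 CPM in the Th/Slc6a3 nuclei.

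In single nuclei, Slc17a6 and Slc32a1 were often found together. Of the 103 multi-transmitter nuclei, 58 (56.3%) held at least 1 UMI of both, 15 held Slc17a6 only, 23 held Slc32a1 only and 7 held neither. Both were found in 20 of 34, 12 of 27, 10 of 12 and 16 of 30 nuclei, so each library had such nuclei. Among Th/Slc6a3 nuclei both were found in 9 of 339 (2.65%), and among Gad1 nuclei in 24 of 1211 (1.98%). A dopamine gene beside both was less frequent in the multi-transmitter nuclei. Th was found with both in 31 of 103 (30.1%), and Slc18a2 (VMAT2) with both in 16 of 103 (15.5%). Shares of nuclei with a UMI depend on depth, so each nucleus was also thinned to 2000 UMIs. Slc17a6 with Slc32a1 was then expected in 12.4% ± 5.35 (SD, n = 4) of the multi-transmitter nuclei, 0.320% of the Th/Slc6a3 nuclei, 0.246% of the Gad1 nuclei and 0.00303% of the oligodendrocyte-marked nuclei. Slc17a6 by itself was expected in 28.7% ± 7.39, 4.92%, 1.45% and 0.769% of nuclei in the same order, and Slc32a1 in 41.9% ± 6.41, 4.26%, 39.1% and 0.572%. The multi-transmitter share was higher in 4 of 4 libraries in each of these comparisons except Slc32a1 against the Gad1 nuclei, where it was higher in 2 of 4. The exact two-sided sign-flip test gave p = 0.12 for those in 4 of 4 libraries, the smallest that 4 libraries allow, and 0.40 after Benjamini-Hochberg adjustment over 48 such tests.

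**Figure D2:**
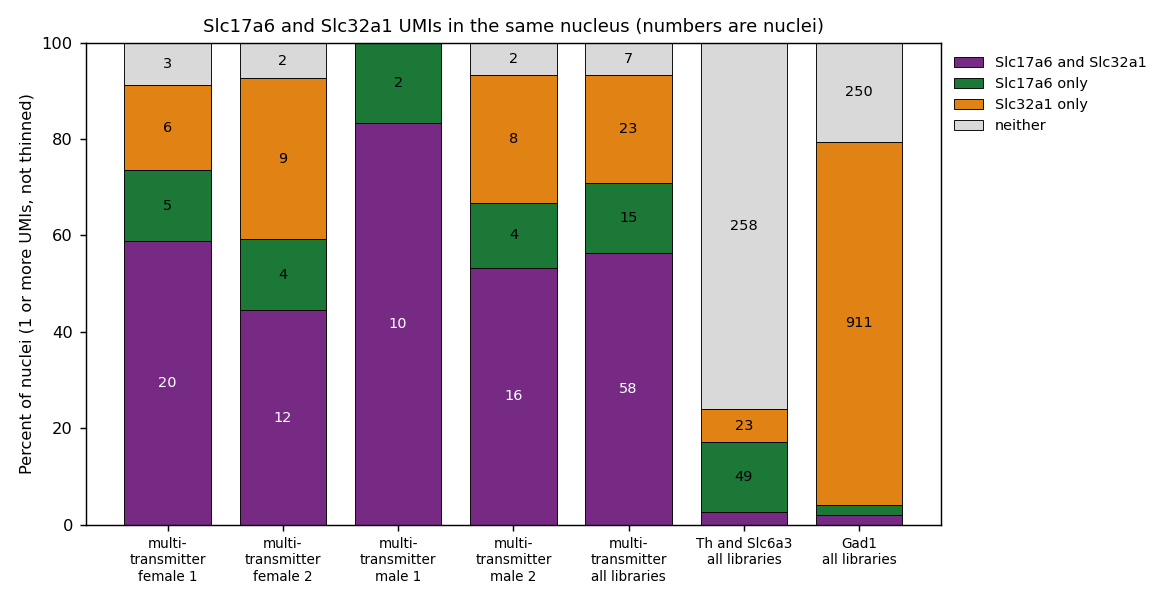
Share of nuclei (%) with a UMI of Slc17a6 and Slc32a1 together, of 1 of them, or of neither, in each library of the multi-transmitter nuclei and in each set over all libraries, without thinning; numbers in the bars are nuclei. Both together make up 56.3% of all 103 multi-transmitter nuclei and under 3% of the nuclei of each other set.

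Genes of glutamate and GABA handling were also counted by list, and Slc17a6 and Slc32a1 were not left out of these counts. Of 8 genes of the glutamate list that passed the filter on low counts (10 listed), 3 were higher and 1 lower than in the Th/Slc6a3 nuclei (median log2 fold change 0.36), and 2 were higher than in the Gad1 nuclei (median 0.09). Got1, an aspartate aminotransferase that forms glutamate, was at 240.2, 214, 399.7 and 317 CPM against 107, 94.1, 100.1 and 94.4 CPM in the Th/Slc6a3 nuclei, with no overlap (log2 fold change 1.49 ± 0.15, edgeR adjusted p = 2.24e-08). Slc1a1, the neuronal glutamate uptake carrier EAAT3, was higher by 0.67 ± 0.20. This small difference did not pass the test without female 1 (0.61), male 1 (0.66) or male 2 (0.56), nor on thinning (1.01). Slc17a7 and Slc17a8, the other vesicular glutamate transporters, were nearly absent, with levels of 0.992 ± 1.98 and 4.23 ± 6.21 CPM.

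Of 7 genes of the GABA list that passed (8 listed), 3 were higher and 1 lower than in the Th/Slc6a3 nuclei (median 0.89), and 1 was higher and 1 lower than in the Gad1 nuclei (median -0.08). The group needed at least 2 UMIs of Gad2 and 0 of Gad1. Genes that go along with either are not independent of how the nuclei were chosen. Abat, the GABA transaminase that breaks GABA down, was at 148 ± 12.6 CPM against 77.4 ± 1.16 CPM in the Th/Slc6a3 nuclei (log2 fold change 0.90 ± 0.16, edgeR adjusted p = 0.000143) and 161 ± 23.0 CPM in the Gad1 nuclei. Aldh1a1, which in dopamine neurons can make GABA by a route without Gad1 and Gad2 and also clears dopamine aldehyde, was at 60.9 ± 41.8 CPM, between 347 ± 96.1 CPM in the Th/Slc6a3 nuclei and 5.75 ± 2.42 CPM in the Gad1 nuclei. Both differences passed the test (log2 fold changes -2.62 ± 0.22 and 3.40 ± 0.39).

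Markers of further transmitters were scarce. Slc18a3 (vesicular acetylcholine transporter), Dbh and Slc6a2 (noradrenaline), Slc6a4 (serotonin transporter) and Slc6a5 (glycine transporter) had 0 UMIs in the 103 nuclei. A total of 0 among 970056 UMIs allows a level of up to 3.09 CPM, taking 3 counts as the limit for counting error. Hdc, which makes histamine, had 1 UMI in the multi-transmitter nuclei and 513 in the Gad1 nuclei. Nos1, the neuronal nitric oxide synthase, was at 22.1 ± 9.06 CPM against 144 ± 24.0 CPM in the Gad1 nuclei (log2 fold change -2.56 ± 0.23, edgeR adjusted p = 4.83e-09).

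Genes of dopamine handling were lower than in the Th/Slc6a3 nuclei, and several were higher than in the Gad1 nuclei. Of 15 genes that passed the filter (17 listed), 9 were lower and 0 higher than in the Th/Slc6a3 nuclei (median log2 fold change -1.72), and 5 were higher and 2 lower than in the Gad1 nuclei (median -0.10). Since a high Th or Slc6a3 count kept nuclei out of the group and defined the Th/Slc6a3 nuclei, genes that go along with Th and Slc6a3 are not independent of how the nuclei were chosen. Slc18a2 (VMAT2), which loads dopamine into vesicles, was at 59.2, 75.1, 40.6 and 31.7 CPM in the multi-transmitter nuclei, 449, 324, 432 and 356 CPM in the Th/Slc6a3 nuclei and 16.3, 15.0, 19.5 and 14.7 CPM in the Gad1 nuclei. The multi-transmitter libraries lay below all Th/Slc6a3 libraries (log2 fold change -2.87 ± 0.18, edgeR adjusted p = 8.93e-12) and above the Gad1 nuclei (log2 fold change 1.75 ± 0.26, edgeR adjusted p = 2.26e-05). Slc18a2 was found in 29 of 103 multi-transmitter nuclei, 305 of 339 Th/Slc6a3 nuclei and 85 of 1211 Gad1 nuclei. After thinning, the shares were 10.5%, 51.5%, 2.44% and, in oligodendrocyte-marked nuclei, 0.325%.

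Gch1, which starts the synthesis of the cofactor of Th, followed the same order with 23.0, 18.8, 13.5 and 7.93 CPM in the multi-transmitter nuclei, 120.4, 124, 145 and 129 CPM in the Th/Slc6a3 nuclei and 2.27 ± 1.55 CPM on average in the Gad1 nuclei. It was lower than in the Th/Slc6a3 nuclei by a log2 fold change of -2.97 ± 0.30 (edgeR adjusted p = 3.87e-08) and higher than in the Gad1 nuclei by 2.96 ± 0.55. The dopamine autoreceptor Drd2 was at 99.6 ± 26.3 CPM, below 321 ± 42.0 CPM in the Th/Slc6a3 nuclei (log2 fold change -1.75 ± 0.22, edgeR adjusted p = 1.21e-06) and above 21.1 ± 9.79 CPM in the Gad1 nuclei (log2 fold change 2.27 ± 0.30). Sv2c, a synaptic vesicle protein, was lower than in the Th/Slc6a3 nuclei by -3.22 ± 0.16. Maoa, which breaks down monoamines, was lower by -1.72 ± 0.35. Slc10a4, a vesicular carrier, and Aldh2 were lower with edgeR adjusted p = 0.0328 and 0.0498. Both calls were lost when single libraries were left out: Slc10a4 without female 1 (log2 fold change -1.29), male 1 (-1.57) or male 2 (-2.15), and Aldh2 without female 2 (-1.48), male 1 (-1.21) or male 2 (-1.38).

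Transcription factors of midbrain dopamine neurons differed gene by gene from the Th/Slc6a3 nuclei and were mostly well above the Gad1 nuclei. Of 16 such genes that passed the filter (20 listed), 11 were higher and 2 lower than in the Gad1 nuclei (median log2 fold change 2.13), while 3 were higher and 6 lower than in the Th/Slc6a3 nuclei (median -0.59). The group needed Ddc and 0 UMIs of Gad1, Gad1 defined the Gad1 nuclei, and Th and Slc6a3 defined the Th/Slc6a3 nuclei. Factors that go along with these genes are not independent of how the nuclei were chosen. These counts and medians are thus not independent evidence. Lmx1a, a LIM homeodomain factor that specifies dopamine progenitors, was at 234, 251, 271 and 202 CPM in the multi-transmitter nuclei, 192, 229.9, 176 and 174 CPM in the Th/Slc6a3 nuclei and 3.97, 7.52, 2.93 and 9.31 CPM in the Gad1 nuclei. The multi-transmitter and Th/Slc6a3 libraries overlapped (log2 fold change 0.27 ± 0.15, edgeR adjusted p = 0.259), and both stood apart from the Gad1 nuclei (log2 fold change 5.39 ± 0.22, edgeR adjusted p = 2.53e-15). Against Th/Slc6a3 nuclei without a UMI of Gad2, Lmx1a was higher by 0.53 and passed (edgeR adjusted p = 0.02). Nr4a2 (Nurr1), needed for the dopamine phenotype, was at 62.5, 75.1, 74.5 and 83.3 CPM in the multi-transmitter nuclei and 47.9, 56.9, 61.9 and 60.7 CPM in the Th/Slc6a3 nuclei, higher in 4 of 4 libraries by a small margin, and averaged 1.95 ± 0.698 CPM in the Gad1 nuclei. Foxa2, a forkhead factor of the ventral midbrain, averaged 30.4 ± 15.9, 21.6 ± 2.93 and 3.56 ± 1.23 CPM. Nr4a2 and Foxa2 did not pass the test against the Th/Slc6a3 nuclei (edgeR adjusted p = 0.247 and 0.512) and were higher than in the Gad1 nuclei by log2 fold changes of 5.19 ± 0.30 and 3.08 ± 0.43.

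Pitx3, a homeodomain factor of dopamine neurons, was lower, at 23.0, 7.51, 6.77 and 11.9 CPM against 49.2, 67.4, 54.7 and 47.2 CPM in the Th/Slc6a3 nuclei. Its levels did not overlap (log2 fold change -2.05 ± 0.36, edgeR adjusted p = 0.000141), and it was still above the Gad1 nuclei at 0.36 CPM. Lmx1b averaged 70.0 ± 22.2 CPM against 102 ± 8.15 CPM in the Th/Slc6a3 nuclei (log2 fold change -0.54 ± 0.19, edgeR adjusted p = 0.053). Without male 2, whose Lmx1b level was the highest, this difference passed the test at -0.82. Bnc2, a zinc finger factor, was lower than in the Th/Slc6a3 nuclei by -0.64 ± 0.16, a call lost with DESeq2 (-0.67, adjusted p = 0.335), and higher than in the Gad1 nuclei by 5.92 ± 0.24. Satb1 and Neurod6, factors that mark subsets of dopamine neurons, were lower than in the Th/Slc6a3 nuclei by -2.63 ± 0.27 and -3.36 ± 0.47. Sox6 was lower by -1.46 ± 0.37, and 28 of its 41 UMIs came from 2 nuclei that also held astrocyte-marker UMIs.

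The early B-cell factor (EBF) family, helix-loop-helix factors of neuronal differentiation, was high. Ebf2 was at 582, 251, 718 and 702 CPM in the multi-transmitter nuclei, 18.1, 47.6, 36.1 and 55.1 CPM in the Th/Slc6a3 nuclei and 374, 272, 177 and 269.9 CPM in the Gad1 nuclei. All multi-transmitter libraries lay above the Th/Slc6a3 libraries (log2 fold change 3.73 ± 0.28, edgeR adjusted p = 3.51e-10), and female 2, the lowest, lay within the range of the Gad1 nuclei (log2 fold change 1.03 ± 0.21). Ebf3 was higher by 1.41 ± 0.13 than in the Th/Slc6a3 nuclei and by 4.30 ± 0.15 than in the Gad1 nuclei (edgeR adjusted p = 1.32e-08 and 1.55e-16), and Ebf1 by 0.78 ± 0.13 and 1.94 ± 0.13. The 3 EBF genes were the only ones of this list that were higher than in both other sets. Of these calls, Ebf1 against the Th/Slc6a3 nuclei was lost when all nuclei were thinned to 2000 UMIs (0.29, edgeR adjusted p = 0.412), and Ebf2 against the Gad1 nuclei was lost with DESeq2 (1.07, adjusted p = 0.136).

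Most of the detected factors of midbrain GABA neurons were lower in the multi-transmitter nuclei than in the Gad1 nuclei. Of 11 such genes that passed the filter (30 listed, 29 found by name), 9 were lower than in the Gad1 nuclei and 1, En1, which marks the midbrain and is also in the dopamine factor list, was higher. The En1 call was lost without female 1 (log2 fold change 2.63), female 2 (2.20) or male 2 (1.57). The median log2 fold change was -4.72, or -3.15 with the 3 genes at 0 UMIs set to the bound that 3 counts give. Genes at 0 UMIs in the multi-transmitter nuclei could pass the filter only through the other sets, so they could only be lower. Meis2, Pax3 and Pax7, at 1 to 3 UMIs, needed the other sets to pass too. Nuclei with a Gad1 UMI were kept out of the group, and Gad1 defined the Gad1 nuclei. Genes that go along with Gad1 are therefore not independent of how the nuclei were chosen. The count and the median are thus not independent evidence. Gata3, a zinc finger factor of ventral midbrain and hindbrain GABA neurons, had 0 UMIs in the multi-transmitter nuclei and 49.2, 47.2, 39.7 and 46.5 CPM in the Gad1 nuclei, and was at least 14.7-fold lower (edgeR adjusted p = 7.04e-07). Tal1 and Sox14, 2 further factors of that lineage, were also at 0 UMIs, at least 6.76-fold and 8.90-fold lower. Meis2 had 3 UMIs in the 103 nuclei and averaged 617 ± 126 CPM in the Gad1 nuclei (edgeR adjusted p = 1.42e-12). Pax3 and Pax7, paired-box factors, had 1 and 2 UMIs against 80.2 ± 17.7 and 56.2 ± 13.3 CPM. Zfpm2 (FOG2), a partner of GATA factors, was at 46.4 ± 51.5 CPM against 423 ± 47.6 CPM (log2 fold change -3.06 ± 0.27).

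**Figure D3:**
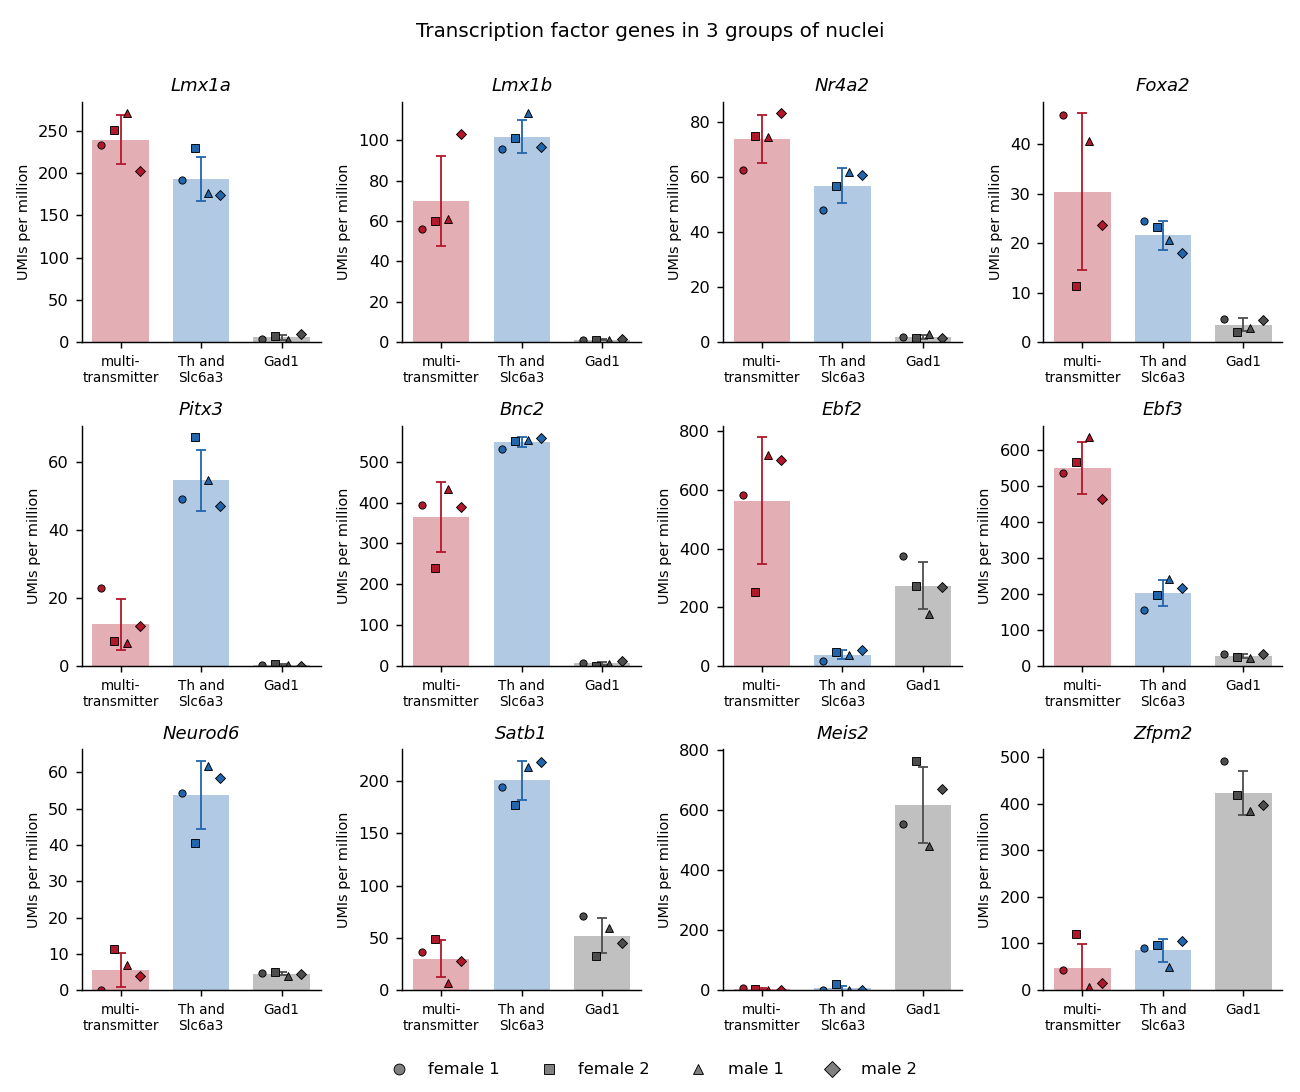
Level of dopamine and GABA lineage transcription factors (CPM, linear axes from 0) in the 3 sets of nuclei. Each point is 1 library, each bar the mean and each error bar the SD. Lmx1a and Foxa2 overlap between multi-transmitter and Th/Slc6a3 nuclei, Ebf2 averages 564 against 39.2 CPM, and Meis2 averages 617 CPM in the Gad1 nuclei and is near 0 elsewhere.

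Genes that mark subtypes of dopamine neurons split into a group that was higher and a larger group that was lower than in the Th/Slc6a3 nuclei. Of 20 that passed (28 listed, 27 found by name), 6 were higher and 11 lower than in the Th/Slc6a3 nuclei (median -1.17), and 11 were higher and 4 lower than in the Gad1 nuclei (median 1.16). As for the dopamine factors, genes that go along with the gating genes are not independent of how the nuclei were chosen. Wnt2 was at 257, 146, 196 and 230.1 CPM in the multi-transmitter nuclei, 66.0, 90.6, 121 and 102 CPM in the Th/Slc6a3 nuclei and 1.99, 2.15, 1.30 and 1.47 CPM in the Gad1 nuclei. It was higher than in both (log2 fold changes 1.13 ± 0.18 and 6.90 ± 0.27, edgeR adjusted p = 2.85e-05 and 2.04e-15). Crhbp, a secreted protein that binds corticotropin-releasing hormone, was at 207, 116, 163 and 206 CPM against 25.9, 25.5, 55.7 and 32.6 CPM and 22.6, 10.0, 15.3 and 31.3 CPM, higher than in each of the other sets in all 4 libraries (log2 fold changes 2.28 ± 0.24 and 3.23 ± 0.23). Megf11, an adhesion receptor, was higher by 2.63 ± 0.23 and 1.48 ± 0.18. Ret, the receptor subunit for GDNF family ligands, averaged 238 ± 53.1 CPM against 238 ± 39.9 CPM in the Th/Slc6a3 nuclei (edgeR adjusted p = 0.863), and was higher than in the Gad1 nuclei by 3.13 ± 0.17. Tmem207 was lower than in the Th/Slc6a3 nuclei by -1.28 ± 0.23 and higher than in the Gad1 nuclei by 6.93 ± 0.49.

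Among the lower subtype genes, Tacr3, the neurokinin 3 receptor, was at 0, 15.0, 0 and 3.97 CPM against 290.1, 211, 175 and 192 CPM in the Th/Slc6a3 nuclei. The difference of -5.44 ± 0.37 on the log2 scale (edgeR adjusted p = 5.45e-11) rested on 5 UMIs against 747. Col25a1, a transmembrane collagen, was lower by -5.00 ± 0.51, and Kcns3, a modulatory potassium channel subunit, had 1 UMI against 169.

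Peptide genes differed from both other sets. Of 15 that passed (35 listed), 3 were higher and 5 lower than in the Th/Slc6a3 nuclei (median -0.31), and 6 were higher and 5 lower than in the Gad1 nuclei (median -0.21, or 0 with genes at 0 UMIs at their bound). Cck, cholecystokinin, a peptide of many VTA dopamine neurons, was at 698, 480.4, 339 and 571 CPM in the multi-transmitter nuclei and 1013, 766, 863 and 1012 CPM in the Th/Slc6a3 nuclei. It was lower than there by -0.83 ± 0.12 (edgeR adjusted p = 1.12e-05) and higher than in the Gad1 nuclei, at 14.6 CPM, by 5.24 ± 0.16 (edgeR adjusted p = 2.26e-17). Nts, neurotensin, had 0 UMIs in the multi-transmitter nuclei against 266 in the Th/Slc6a3 nuclei and 442 in the Gad1 nuclei. It was at least 24.6-fold lower than in the former and at least 13.7-fold lower than in the latter (edgeR adjusted p = 3.4e-07 and 9.12e-06). Grp, gastrin-releasing peptide, also had 0 UMIs and was at least 8.43-fold lower than in the Th/Slc6a3 nuclei (edgeR adjusted p = 0.00022). Cbln2, a synapse-organising cerebellin, was at 32.9, 18.8, 61.0 and 55.5 CPM against 2.25 ± 1.21 CPM (log2 fold change 4.08 ± 0.49, edgeR adjusted p = 7.07e-07). Adcyap1 (PACAP) and Nppc (C-type natriuretic peptide) were higher than in the Gad1 nuclei by 3.43 ± 0.40 and 3.14 ± 0.33, and against the Th/Slc6a3 nuclei neither passed the test (edgeR adjusted p = 0.611 and 0.398).

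Nicotinic acetylcholine receptor subunits, the targets of nicotine on these neurons, were mostly lower than in the Th/Slc6a3 nuclei. Of 7 that passed (11 listed), 1 was higher and 5 lower than there (median -1.10), and 3 were higher and 3 lower than in the Gad1 nuclei (median -0.33). Chrna5, an accessory subunit, was at 3.29, 11.3, 0 and 0 CPM in the multi-transmitter nuclei, 177, 103, 134 and 120.3 CPM in the Th/Slc6a3 nuclei and 118, 154, 88.2 and 119 CPM in the Gad1 nuclei. It was nearly absent in all 4 multi-transmitter libraries, 4 UMIs in all, and lower than in both other sets (log2 fold changes -5.05 ± 0.50 and -4.82 ± 0.50, edgeR adjusted p = 3.09e-08 and 7.46e-08). Chrna3, a ganglionic-type subunit, had 1 UMI, against 88 and 186. Chrna7, which forms homomeric receptors, was at 105, 146, 142 and 143 CPM against 51.8, 60.4, 60.9 and 49.5 CPM in the Th/Slc6a3 nuclei, and higher in all 4 libraries (log2 fold change 1.28 ± 0.19, edgeR adjusted p = 1.11e-05). Against the Gad1 nuclei its difference of 0.68 ± 0.16 did not pass without male 2 (0.62). Thinned to 2000 UMIs, Chrna7 passed neither test, with 1.03 (edgeR adjusted p = 0.115) and 0.14 (edgeR adjusted p = 0.897). Chrnb3 and Chrna6, subunits that pair in dopamine neurons, were at 75.6 ± 21.9 and 72.0 ± 8.01 CPM, below the 162 ± 30.3 and 118 ± 11.7 CPM of the Th/Slc6a3 nuclei (log2 fold changes -1.10 ± 0.17 and -0.74 ± 0.18) and above the 0.964 ± 0.339 and 5.37 ± 1.33 CPM of the Gad1 nuclei. For Chrna6 the sign against the Th/Slc6a3 nuclei turned to 0.16 (edgeR adjusted p = 0.895) when all nuclei were thinned to 2000 UMIs. Chrna2 had 0 UMIs, as in the Th/Slc6a3 nuclei, and was at least 8.00-fold lower than in the Gad1 nuclei, a call lost with DESeq2 (adjusted p = 0.558).

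Of 6 opioid genes that passed (8 listed), 1 was higher than in the Th/Slc6a3 nuclei (median -0.46) and 3 were lower than in the Gad1 nuclei (median -2.51). Oprm1, the mu opioid receptor, had 3 UMIs in the multi-transmitter nuclei and was at 169 ± 39.7 CPM in the Gad1 nuclei (edgeR adjusted p = 9.24e-12). It was at 8.91 ± 5.82 CPM in the Th/Slc6a3 nuclei and did not pass that test (edgeR adjusted p = 0.145). Oprd1, the delta opioid receptor, was at 16.5, 26.3, 6.77 and 15.9 CPM against 3.88, 1.16, 3.10 and 0 CPM in the Th/Slc6a3 nuclei (log2 fold change 3.00 ± 0.63, edgeR adjusted p = 0.000983), a difference that rested on 17 against 7 UMIs. The kappa receptor Oprk1 averaged 15.2 ± 3.93, 22.5 ± 10.4 and 6.08 ± 2.07 CPM in the 3 sets and passed neither test. Among opioid peptides, Penk (proenkephalin) had 1 UMI in the multi-transmitter nuclei and averaged 93.9 ± 25.0 CPM in the Gad1 nuclei. Pnoc (pronociceptin) was lower than in the Gad1 nuclei by -3.96 ± 0.48.

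Several receptors for serotonin and peptides differed from both other sets. Htr2c, the serotonin 2C receptor, was at 750.2, 387, 237 and 389 CPM in the multi-transmitter nuclei, 3.88, 11.6, 10.3 and 87.7 CPM in the Th/Slc6a3 nuclei and 881, 1148, 861 and 859 CPM in the Gad1 nuclei. All multi-transmitter libraries lay above all Th/Slc6a3 libraries (log2 fold change 3.95 ± 0.41, edgeR adjusted p = 5.87e-08). Its UMIs were unevenly spread: 51 of 103 held 0 UMIs, 30 held 5 or more and the highest held 57. Against the Gad1 nuclei the difference of -1.04 ± 0.28 did not pass the test without female 2 (-0.83) or male 1 (-0.86), nor with DESeq2 or without the block. Vipr2, a receptor of the peptides VIP and PACAP, averaged 71.1 ± 36.4 CPM, 10.4 ± 3.51 CPM and 6.96 ± 3.28 CPM (log2 fold changes 2.62 ± 0.38 and 3.27 ± 0.36, edgeR adjusted p = 1.18e-05 and 1.54e-07). Calcr, the calcitonin receptor, was at 135, 297, 94.8 and 75.4 CPM in the multi-transmitter nuclei and 42.7, 60.4, 93.9 and 76.4 CPM in the Th/Slc6a3 nuclei. Its levels overlapped, and the difference of 1.32 ± 0.47 (edgeR adjusted p = 0.0494) was lost without female 1 (1.21) or female 2 (0.74), with DESeq2 (1.11) and on thinning (0.83). Npsr1, the neuropeptide S receptor, was at 625, 627, 196 and 547 CPM against 68.6, 54.6, 45.4 and 87.7 CPM and 7.15, 7.87, 15.6 and 31.3 CPM and was higher than in both (log2 fold changes 2.98 ± 0.24 and 5.11 ± 0.25, edgeR adjusted p = 9.82e-10 and 1.07e-13). Npsr1 too was uneven, with 64 of 103 nuclei at 0 UMIs, 28 at 5 or more and 70 UMIs in the highest. Of 11 peptide receptors that passed (35 listed, 33 found by name), 2 were higher and 3 lower than in the Th/Slc6a3 nuclei.

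Of 11 steroid and nuclear hormone receptors that passed (13 listed, 12 found by name), 2 were higher than in the Th/Slc6a3 nuclei, and 1 was higher and 3 lower than in the Gad1 nuclei. Nr3c2, the mineralocorticoid receptor, was at 284 ± 38.6 CPM against 116 ± 18.5 CPM in the Th/Slc6a3 nuclei (log2 fold change 1.24 ± 0.14, edgeR adjusted p = 3.07e-07). Thinned to 2000 UMIs, this difference was 0.70 and did not pass (edgeR adjusted p = 0.0968).

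Glutamate receptor subunits of 1 family differed in opposite directions. Of 17 ionotropic subunits that passed (18 listed), 8 were higher and 3 lower than in the Th/Slc6a3 nuclei (median -0.10), and 6 were higher and 5 lower than in the Gad1 nuclei (median -0.16). Grik1, a kainate receptor subunit, was at 675, 882, 799 and 536 CPM in the multi-transmitter nuclei, 72.5, 117, 73.3 and 66.3 CPM in the Th/Slc6a3 nuclei and 265, 262, 315 and 225 CPM in the Gad1 nuclei. It was higher than in both with no overlap (log2 fold changes 3.11 ± 0.13 and 1.46 ± 0.11, edgeR adjusted p = 4.82e-14 and 1.88e-10). Grik3, another kainate subunit, went the other way, with 4 UMIs in the multi-transmitter nuclei and 365, 459, 353 and 328 CPM in the Th/Slc6a3 nuclei (log2 fold change -6.51 ± 0.35, edgeR adjusted p = 1.19e-12). Among AMPA receptor subunits, Gria3 was higher than in both sets by 1.21 ± 0.09 and 1.31 ± 0.09, and Gria4 was lower than in the Gad1 nuclei by -1.83 ± 0.09. Grm8, a presynaptic metabotropic receptor, was at 3883, 3066, 4106 and 3669 CPM against 846, 891, 868 and 832 CPM and 1074, 971, 864 and 1021 CPM, and every multi-transmitter library was above every other (log2 fold changes 2.07 ± 0.09 and 1.94 ± 0.09). Of 5 metabotropic receptors that passed (8 listed), 3 were higher than in the Th/Slc6a3 nuclei, with Grm5 higher by 1.46 ± 0.12. Among 14 GABA-A and glycine receptor genes that passed (22 listed), 1 was higher and 4 lower than in the Th/Slc6a3 nuclei. That one, Gabrg3, averaged 1689 ± 454 CPM and was also higher than in the Gad1 nuclei (log2 fold changes 0.94 ± 0.13 and 1.00 ± 0.13). Gabra4 was lower than in the Th/Slc6a3 nuclei by -2.04 ± 0.18.

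Ion channels of firing and calcium entry were split in direction. Of 23 pacemaker, sodium and calcium channel genes that passed (24 listed), 8 were higher and 7 lower than in the Th/Slc6a3 nuclei (median 0.03), and 4 were higher and 5 lower than in the Gad1 nuclei (median -0.08). Of 24 potassium channel genes that passed (31 listed, 29 found by name), 8 were higher and 10 lower than in the Th/Slc6a3 nuclei (median -0.20), and 4 were higher and 8 lower than in the Gad1 nuclei (median -0.36). Kcnc1 (Kv3.1), a channel of fast-spiking neurons, was at 168, 229, 224 and 206 CPM in the multi-transmitter nuclei, 28.5, 30.2, 31.0 and 34.8 CPM in the Th/Slc6a3 nuclei and 253, 267, 208 and 266 CPM in the Gad1 nuclei. It was higher than in the Th/Slc6a3 nuclei with no overlap (log2 fold change 2.67 ± 0.17, edgeR adjusted p = 1.96e-11) and did not pass the test against the Gad1 nuclei (edgeR adjusted p = 0.206). Kcnn3 (SK3), a calcium-activated channel that shapes regular firing of dopamine neurons, was at 49.4, 63.8, 40.6 and 23.8 CPM against 322, 317, 327 and 290.0 CPM (log2 fold change -2.82 ± 0.18, edgeR adjusted p = 1.53e-11). Kcnd3 (Kv4.3), which carries the A-type current, was lower by -1.94 ± 0.11, and Cacna1e, an R-type calcium channel, by -1.74 ± 0.12. Scn1a (Nav1.1), a sodium channel, was higher by 1.29 ± 0.10. Of the genes that couple the dopamine autoreceptor to potassium channels, Kcnj6 (GIRK2) was at 138 ± 22.2 CPM, below 210.4 ± 34.1 CPM in the Th/Slc6a3 nuclei (log2 fold change -0.62 ± 0.13, edgeR adjusted p = 0.00126) and above 26.5 ± 5.05 CPM in the Gad1 nuclei. The Kcnj6 call against the Th/Slc6a3 nuclei was lost on thinning to 2000 UMIs (-0.30, edgeR adjusted p = 0.669). Kcnj3 (GIRK1) was higher than in the Th/Slc6a3 nuclei by 1.05 ± 0.15.

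**Figure D4:**
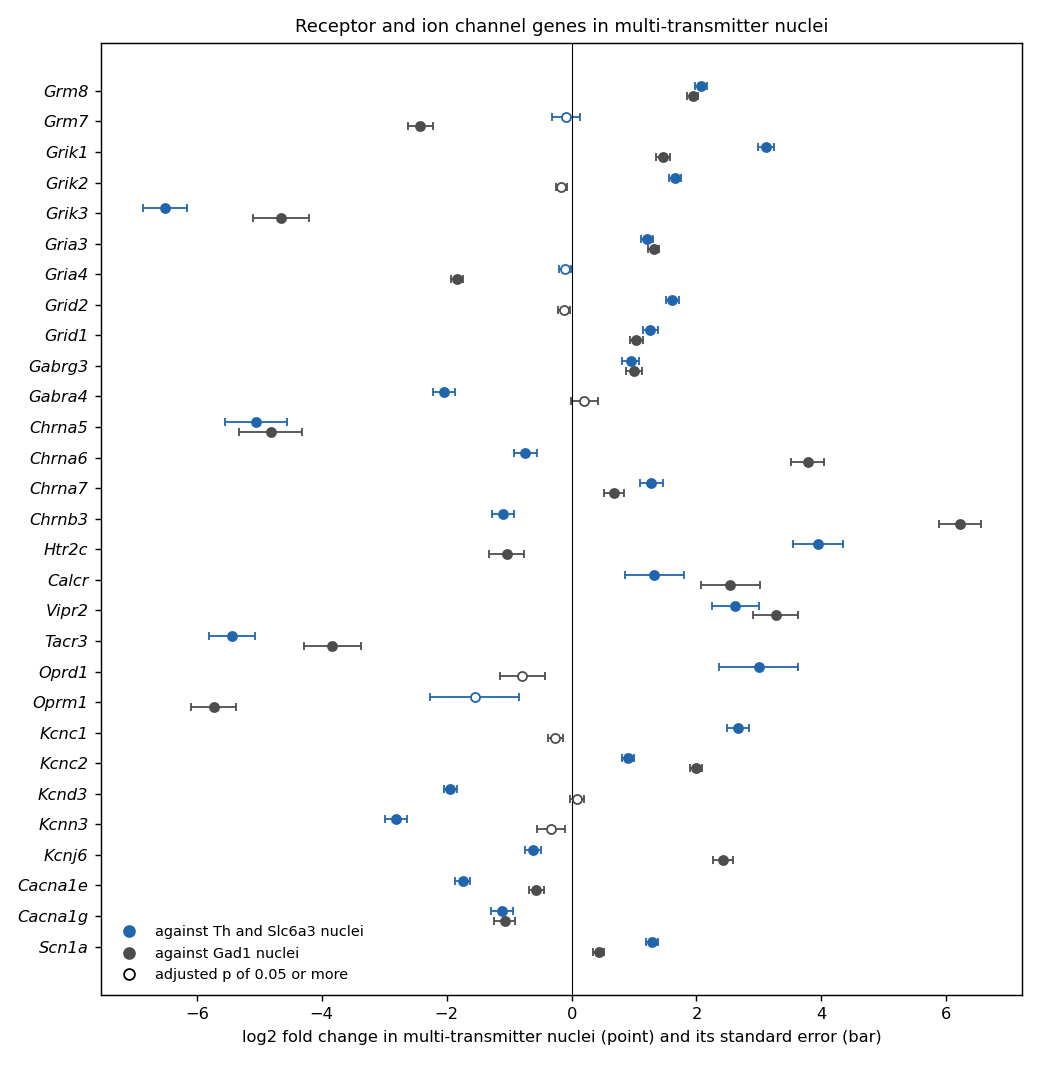
Log2 fold change of receptor and channel genes in multi-transmitter nuclei against Th/Slc6a3 nuclei and against Gad1 nuclei, with bars of 1 SE; filled points passed at edgeR adjusted p under 0.05. Grik1, Grm8 and Gabrg3 lie to the right of 0 in both comparisons, and Chrna5 and Grik3 to the left in both.

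Synaptic release genes also differed in composition. Of 33 that passed (38 listed, with 2 left out as gate markers), 8 were higher and 13 lower than in the Th/Slc6a3 nuclei (median -0.21), and 6 were higher and 7 lower than in the Gad1 nuclei (median -0.06). Syt2, a fast calcium sensor of release, was at 36.2, 67.6, 81.3 and 87.3 CPM in the multi-transmitter nuclei and 0, 1.16, 3.10 and 1.12 CPM in the Th/Slc6a3 nuclei, where only 5 UMIs were counted (log2 fold change 5.40 ± 0.46, edgeR adjusted p = 2.68e-09). In the Gad1 nuclei Syt2 averaged 35.1 ± 7.58 CPM, and that difference did not pass without female 2 (0.87) or male 2 (0.93). Cplx1, complexin 1, which clamps and triggers fusion, was higher than in the Th/Slc6a3 nuclei by 1.74 ± 0.19, and Sv2a by 1.09 ± 0.12. Rims1, an active-zone scaffold, was lower by -0.86 ± 0.08. Unc13c, a vesicle priming factor, was lower than in the Gad1 nuclei by -4.36 ± 0.28, and its difference from the Th/Slc6a3 nuclei, -1.50, was lost without male 2 (-1.30), on thinning (-1.21) and when 0 UMIs of Gad1 were not required (-0.57, edgeR adjusted p = 0.322).

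Most anion carriers other than the gating gene Slc26a7 did not pass the tests. Of 15 SLC26 and other chloride, bicarbonate and pH genes that passed the filter (29 listed), 2 were higher and 2 lower than in the Th/Slc6a3 nuclei (median 0.12). Against the Gad1 nuclei 2 were higher and 1 lower (median -0.004). The other 11 and 12 genes did not differ at the threshold. Slc4a10, a sodium-driven bicarbonate exchanger, was at 872, 747, 833 and 869 CPM in the multi-transmitter nuclei, 495, 496, 549 and 469.8 CPM in the Th/Slc6a3 nuclei and 516, 469.6, 497 and 459 CPM in the Gad1 nuclei. It was higher than in both (log2 fold changes 0.71 ± 0.09 and 0.82 ± 0.09, edgeR adjusted p = 1.61e-06 and 1.07e-07). Slc12a2 (NKCC1), which brings chloride in, was higher than in the Gad1 nuclei by 0.79 ± 0.16, and Slc12a5 (KCC2), which takes it out, passed neither test (edgeR adjusted p = 0.317 and 0.304). Ano2, a calcium-activated chloride channel, had 1 UMI in the multi-transmitter nuclei against 134 in the Th/Slc6a3 nuclei (edgeR adjusted p = 4.43e-06). Car10, a carbonic anhydrase-related protein without enzyme activity, was lower than in both by -1.54 ± 0.22 and -2.63 ± 0.21.

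Growth factor receptors and guidance genes differed widely. Met, the receptor of hepatocyte growth factor, was at 46.1, 33.8, 81.3 and 63.5 CPM in the multi-transmitter nuclei, 0, 0, 5.16 and 1.12 CPM in the Th/Slc6a3 nuclei and 10.7, 8.95, 6.19 and 1.47 CPM in the Gad1 nuclei. Female 2 was the lowest multi-transmitter library and still lay above every other library (log2 fold changes 4.89 ± 0.65 and 3.00 ± 0.44, edgeR adjusted p = 3.06e-06 and 1.59e-05). Kit, the stem cell factor receptor, was higher than in the Th/Slc6a3 nuclei by 2.40 ± 0.34, and Erbb4, a neuregulin receptor, was higher than in the Gad1 nuclei by 2.66 ± 0.09. Of 14 trophic genes that passed (20 listed, 18 found by name), 4 were higher and 4 lower than in the Th/Slc6a3 nuclei. Of 38 axon guidance and adhesion genes that passed (41 listed, 40 found by name), 6 were higher and 17 lower than in the Th/Slc6a3 nuclei (median -0.50), and 10 were higher and 21 lower than in the Gad1 nuclei (median -0.98). Epha3, an ephrin receptor, and Cdh9, a type II cadherin, were higher than in both, Epha3 by 1.93 ± 0.14 and 1.48 ± 0.13 and Cdh9 by 1.63 ± 0.13 and 1.81 ± 0.12. Cdh18 and Cntn4, a cadherin and a contactin, were lower than in both, Cdh18 by -3.03 ± 0.17 and -2.71 ± 0.17 and Cntn4 by -2.97 ± 0.20 and -2.90 ± 0.20. Ntn1, netrin 1, was lower than in the Th/Slc6a3 nuclei by -1.14 ± 0.12 and higher than in the Gad1 nuclei by 3.36 ± 0.15.

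Across all genes, the largest differences with the same direction in all 4 libraries included genes outside the lists. Besides Syt2, Met, Cbln2 and Htr2c, the 10 largest increases over the Th/Slc6a3 nuclei were Galnt14, Col11a1, St8sia4, Fam19a4, Mlnr and Fam114a1. Galnt14, an enzyme that starts O-glycans, was at 313, 199, 237 and 278 CPM against 18.1, 10.5, 9.29 and 12.4 CPM (log2 fold change 4.37 ± 0.22, edgeR adjusted p = 3.75e-13). Col11a1, a fibrillar collagen chain, was higher by 3.89 ± 0.26, and St8sia4, a polysialyltransferase, by 3.74 ± 0.23. Fam19a4 was higher by 3.97 ± 0.34, Mlnr by 4.06 ± 0.57, and Fam114a1 had 31 UMIs against 3 in the Th/Slc6a3 nuclei. The 10 largest decreases were Nts, Grp, Grik3 and Kcns3, already described, and Slc39a4, Gzmm, Dlk1, Trpc4, Cpne7 and Tmem132d. Cpne7, a calcium-binding copine, was at 6.58, 18.8, 0 and 7.93 CPM against 459.7, 459, 485 and 459 CPM (log2 fold change -5.62 ± 0.30), and Tmem132d was lower by -5.55 ± 0.25. Slc39a4 and Gzmm had 0 UMIs and were at least 8.80-fold and 6.57-fold lower, the first a call lost with DESeq2 (adjusted p = 0.418). Like Nts and Grp, they passed the filter only through the other sets. Dlk1 and Trpc4 had 1 UMI each, against 405 and 275. With so few UMIs, Dlk1, Trpc4 and Kcns3 also passed the filter only through the other sets. Grik3, Cpne7 and Tmem132d, with 4, 9 and 8 UMIs, needed the other sets to pass as well. None of these genes could well have been called higher, so their direction is not independent evidence.

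Against the Gad1 nuclei the 10 largest increases were Tmem207, Wnt2, Chrnb3, Bnc2, Lmx1b, Lmx1a, Cck, Nr4a2, Npsr1 and Baiap2l1. Those that go along with Ddc are not independent of how the nuclei were chosen. Baiap2l1, a membrane-curving adaptor protein, was at 85.6, 101, 210.0 and 99.2 CPM against 0.794, 0.716, 1.63 and 4.41 CPM (log2 fold change 6.12 ± 0.40, edgeR adjusted p = 2.13e-11). The 10 largest decreases all had 0 UMIs in the multi-transmitter nuclei, so they passed the filter only through the other sets. Besides Nts, Gata3, Sox14 and Chrna2 they were Lum, Ecel1, Sema3a, Asic4, Slc30a3 and Meox2. Lum (lumican, a matrix proteoglycan) was at least 15.2-fold lower, Ecel1 11.6-fold, the guidance cue Sema3a 11.4-fold, Asic4 10.9-fold, the vesicular zinc carrier Slc30a3 9.99-fold and Meox2 9.06-fold.

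**Figure D5:**
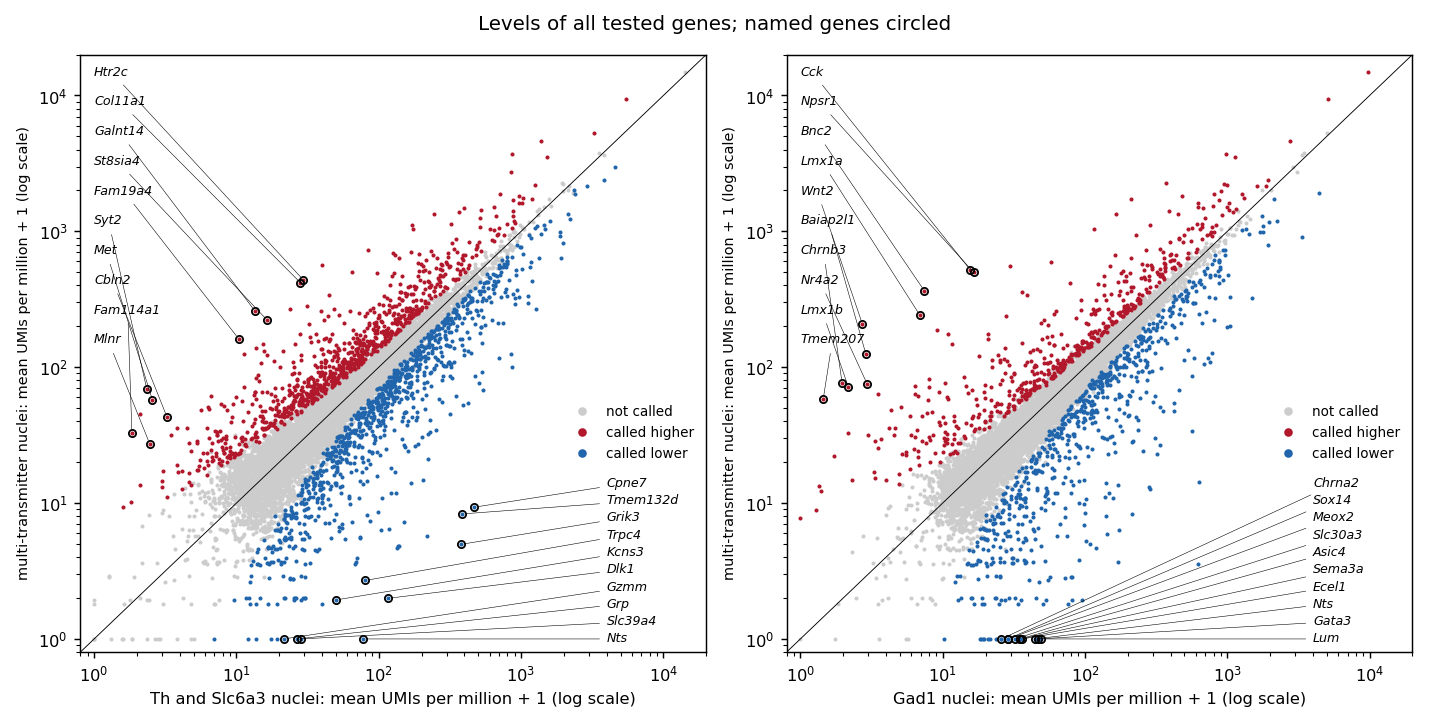
Mean level over 4 libraries (CPM plus 1, log axes) of every gene tested in multi-transmitter nuclei against Th/Slc6a3 nuclei and against Gad1 nuclei. Coloured points passed at edgeR adjusted p under 0.05, 18.7% of genes in the first comparison and 12.4% in the second, and the circled points are the 10 largest increases and decreases of each comparison.

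Few genes differed between the sexes within the multi-transmitter nuclei. Of 5657 genes tested, 9 passed at edgeR adjusted p under 0.05 (0.159%), and 322 had an unadjusted p under 0.05 (5.69%). The count moved between 12 and 28 when 1 library was left out and was 3 with DESeq2. Eif2s3y and Kdm5d, both encoded on the Y chromosome, had 0 UMIs in the female libraries and levels of 94.8 and 75.4 CPM, and 47.4 and 79.3 CPM, in male 1 and male 2 (edgeR adjusted p = 0.00574 and 0.0303). Ddx3 had 0, 3.75, 61.0 and 75.4 CPM, lower in the females by a log2 fold change of -4.94 ± 0.89 (edgeR adjusted p = 0.0356). The unnamed transcript AC241873.1 had 16.5, 3.75, 244 and 190.4 CPM, also lower in the females by -4.28 ± 0.47 (edgeR adjusted p = 0.000228). These 4 genes thus separated the libraries by their labelled sex. Eif2s3y, Kdm5d and Ddx3 did not pass without male 1.

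Apoe, an apolipoprotein made mainly by astrocytes and microglia, had 247, 229, 47.4 and 43.6 CPM and was higher in the females by 2.39 ± 0.33 (edgeR adjusted p = 0.00284). The summed level of 6 astrocyte markers in the same nuclei was 497, 251, 74.5 and 83.3 CPM, so it too was higher in both female libraries. All 6 markers had a UMI. In the Th/Slc6a3 nuclei the sum ranged from 59.8 to 310.1 CPM, and in the Gad1 nuclei from 73.5 to 156 CPM. Of the 154 Apoe UMIs, 104 came from 2 female nuclei with 10 or more astrocyte-marker UMIs, 1 in each female library, and Scrublet marked both as doublets. With marked doublets removed, 3 genes passed and Apoe was not among them. Sox6 and Agt were called as well, and 28 of 41 and 41 of 49 of their UMIs lay in the same 2 nuclei. Tnfrsf19, a receptor of the TNF family, was also called, with 118, 120.1, 27.1 and 27.8 CPM, and only 10 of its 79 UMIs lay in those nuclei. With marked doublets removed its difference was 2.23 (edgeR adjusted p = 0.0838). The ninth call was an unnamed transcript.

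Whether the difference between multi-transmitter and Th/Slc6a3 nuclei itself differed between the sexes was tested with an interaction term. None of 8949 genes passed at edgeR adjusted p under 0.05 (0.0%), 397 had an unadjusted p under 0.05 (4.44%), and DESeq2 gave 0. Leaving out 1 library gave 1 to 12 genes. The lowest p belonged to Htr2c and Calcr, with interaction terms (female minus male, log2) of 3.34 ± 0.60 and 2.04 ± 0.37, both at edgeR adjusted p = 0.0648. These 2 genes are named after their values were seen. Of the 101 Htr2c UMIs in the Th/Slc6a3 nuclei, 78 came from male 2, and without male 2 the term was 1.58 (edgeR adjusted p = 0.788). It passed in 6 of 14 alternatives, among them without female 1 (2.29), female 2 (4.77) or male 1 (3.94) and with doublets removed (3.31). The Calcr term passed in 5 of 14, among them without female 1 (2.30) and with doublets removed (2.19). For Calcr the female multi-transmitter libraries, at 134.9 and 296.5 CPM, lay above the male ones, at 94.8 and 75.4 CPM. These levels rested on few nuclei: 81 of 103 held 0 UMIs, and the 5 highest held 49.7% of the 153 UMIs. By library, the highest nucleus held 17 of 41, 18 of 79, 11 of 14 and 12 of 19 UMIs.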

How the data were processed

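Raw UMI counts per gene and barcode were deposited by the authors as filtered matrices of 32883 features, per the file headers of software version 3.0.2. Cell Ranger and rn6 are named in the submitters' processing notes. The aligner and its settings are not given in sources used here, nor is any removal of free RNA or doublets.

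Doublets were kept. UMIs were summed per library and set of nuclei, giving 12 sums. All 3 sets entered a single edgeR 4.0.16 fit (R 4.3.3, TMM, quasi-likelihood test, filterByExpr), with library as a block because the sets of a library share animals. P-values were adjusted by Benjamini-Hochberg over all genes that passed. The 6 gating genes and the 3 neuronal marker genes were left out of the tests. SE was derived from the log2 fold change and F. Sex was tested on the 4 multi-transmitter sums without a block, and the interaction on 8 sums with library as a block. CPM was each count over the total count of its sum. A set with 0 UMIs of a gene got a bound of 3 counts over its 4 libraries. Genes with only a few UMIs in the multi-transmitter nuclei passed the filter through the other sets and could hardly be called higher. Libraries are pools of 3 animals, so p-values measure the spread between pools. Intervals cover counting error only.

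Thinned shares are hypergeometric expectations at 2000 UMIs per nucleus. The 20 nearest neighbours were found on 30 principal components of 2000 variable genes (scanpy 1.11.5). Scrublet marked 0.8% of barcodes per 1000 barcodes. The fits were tested on simulated data.

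The nuclei, the gene lists (519 genes, 12 not found by name) and the tests were chosen with earlier results of these data known. Named genes were the 10 largest increases and decreases per comparison (adjusted p under 0.05, at least 20 CPM in the higher set, 1 direction in all 4 libraries, unnamed transcripts left out) and up to 5 genes of lowest p in the sex test. From the lists they were the members of the transmitter, dopamine, nicotinic, opioid and anion lists, up to 6 of lowest p of every other list, and the cell type markers. Alternatives were DESeq2 1.42.0, DESeq2 size factors in edgeR, testing all genes with a UMI, the block added or left out, only the compared sets, each library left out, doublets removed, 4000 UMIs, a mitochondrial filter, thinning, and other thresholds of the sets. Some genes of the lists are not reported here.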

Additional observations from a re-analysis of the deposited data

Results flagged for a closer look

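Levels in the 4 multi-transmitter libraries were searched for a library far from the other 3 by Dixon's gap over range. Such a library was found for 3 of the 27 genes looked at, where chance gives about 1 in 20. St8sia4, a polysialyltransferase, reached 386 CPM in male 1 while its other 3 values ran from 150.1 to 179 CPM. Baiap2l1, a membrane-curving adaptor, was at 210.0 CPM in male 1 and at 85.6 to 101 CPM elsewhere. Lmx1b, a dopamine lineage factor, was at 103 CPM in male 2 and at 55.9 to 61.0 CPM in the others. Male 1 had the fewest multi-transmitter nuclei, 12, and its part in the first 2 values was not tested.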

How the results depend on the processing

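Against the Th/Slc6a3 nuclei the number of genes that passed stayed within 1.5 times of 1848 except when all nuclei were thinned to 2000 UMIs (575), and against the Gad1 nuclei within 1.5 times of 1228 except when thinned (482); thinning leaves fewer UMIs. Of the named and listed genes given here, 149 of 185 and 152 of 179 kept their side of the threshold under all alternatives run, and of those that passed only Chrna6 against the Th/Slc6a3 nuclei (0.16, thinned) changed sign. Among all calls, 19 and 5 changed sign when thinned, and 2 against the Gad1 nuclei with doublets removed. The fits without library as a replicate block gave 1680 and 1111 genes and 0 for the interaction. In the sex test 9 genes became 3 with DESeq2, 3 with doublets removed, 3 at 4000 UMIs, 1 with Slc26a7 at 2 or more, 1 thinned, 27 without the filter, 16 with the replicate number as a block, and 12 to 28 without single libraries. The labels do not say that same-numbered libraries were paired, and their deviations correlated by 0.0187 in the multi-transmitter, 0.13 in the Th/Slc6a3 and 0.182 in the Gad1 nuclei. For the interaction, 0 genes became 5 with doublets removed, 2 with the mitochondrial filter, 12 without the filter, 1 with Slc26a7 at 2 or more, 1 thinned, and 1 to 12 without single libraries. The cause of these changes was not tested.

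The female minus male share was 0.572 percentage points at 4000 UMIs and 0.969 of neurons, against 0.315. Requiring Slc26a7 at 2 or more lowered this sex difference to 0.216, with p = 0.67 in the exact two-sided permutation test. Dropping single libraries moved the difference between 0.165 (female 1 dropped) and 0.464 (female 2 dropped). Removing doublets, filtering on mitochondrial reads or not requiring Gad1 at 0 gave values from 0.297 to 0.318. Depth moved the differences in detection share, given here without thinning and at 1000 UMIs: Slc17a6 57.8 and 13.1 percentage points against the Th/Slc6a3 nuclei and 70.7 and 14.9 against the Gad1 nuclei, Slc32a1 70.0 and 22.1 against the Th/Slc6a3 nuclei, and both together 57.4 and 3.91, and 58.0 and 3.93. Genes below 3.09 CPM in the multi-transmitter nuclei lie under the level that 0 counts allow.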
